A study of Mus musculus with 8 samples.

Results

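The RPE visual cycle genes examined here were 9 genes, chosen by symbol: Rpe65, Lrat, Rdh5, Rlbp1, Rgr, Stra6, Rdh10, Rdh11 and Ttr. Each was found once among the 31053 gene identifiers of the count files, and all 9 passed the filter on low counts. The libraries were made by QuantSeq, a method that reads the 3′ end of polyadenylated transcripts, from retinal pigment epithelium (RPE) eyecups of C57/Bl6 mice at postnatal day 11 (P11). Mice with a Bbs8 knockout (Bbs8-/-) gave 4 libraries and wild-type mice (Bbs8+/+) gave the other 4, all labelled as biological replicates and all untreated. The protein made from Bbs8, which is annotated as Ttc8, belongs to the BBSome, a complex that sorts cargo at cilia. Bbs8 was deleted in the whole animal, other cells of the eye included. Whole eyecups were homogenised after cornea, lens, retina and optic nerve had been taken off, and choroid and other tissue at the back of the eye therefore contributed RNA.

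The visual cycle returns bleached chromophore to photoreceptors. Retinol reaches the RPE in the blood, carried by retinol binding protein in a complex with transthyretin, and crosses the basal membrane through the receptor STRA6. LRAT esterifies retinol, RPE65 isomerises the ester to 11-cis retinol, and retinol dehydrogenases such as RDH5 oxidise it to 11-cis retinal, which the carrier CRALBP (Rlbp1) holds before it returns to the outer segments. RGR is a retinal-binding opsin inside RPE cells and Müller glia.

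The 300 bases around the start site are shown for the 3 members whose windows held TAATCC, the bicoid-type motif that OTX2 and CRX recognise, or CATGTG, an E-box form, since these are motif types of RPE transcription factors. The windows run from 250 bases before to 50 bases after the RefSeq start site, 5′ to 3′ on the strand of the gene, in GRCm38.p6 (the build called mm10). They lie at chr3:159598931-159599230 (plus strand, Rpe65), chr14:37048965-37049264 (minus strand, Rgr) and chr7:79386978-79387277 (minus strand, Rlbp1). Capitals mark every match to the motifs searched, as it reads on the printed strand.
Rpe65: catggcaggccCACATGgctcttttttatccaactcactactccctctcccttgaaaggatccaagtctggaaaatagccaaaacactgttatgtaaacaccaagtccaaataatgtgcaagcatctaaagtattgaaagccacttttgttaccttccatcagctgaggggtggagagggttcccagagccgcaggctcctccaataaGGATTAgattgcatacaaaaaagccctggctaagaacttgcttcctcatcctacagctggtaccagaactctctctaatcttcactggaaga
Rgr: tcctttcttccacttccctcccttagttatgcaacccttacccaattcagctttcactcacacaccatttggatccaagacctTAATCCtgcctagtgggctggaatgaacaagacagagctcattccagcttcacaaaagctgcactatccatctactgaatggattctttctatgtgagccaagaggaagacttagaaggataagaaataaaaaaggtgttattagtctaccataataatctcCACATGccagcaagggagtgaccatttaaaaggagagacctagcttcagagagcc
Rlbp1: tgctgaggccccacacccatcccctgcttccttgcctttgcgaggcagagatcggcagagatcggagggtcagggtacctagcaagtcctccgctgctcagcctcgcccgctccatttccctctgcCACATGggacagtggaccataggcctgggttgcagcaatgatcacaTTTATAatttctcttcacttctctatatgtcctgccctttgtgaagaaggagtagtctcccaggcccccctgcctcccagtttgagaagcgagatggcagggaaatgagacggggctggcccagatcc
Both strands were searched for 6 motifs, and no 2 matches overlapped. TAATCC, which reads GGATTA on the other strand, began at position -42 in the Rpe65 window and at -167 in the Rgr window, and it occurred in 7.06% of all 32851 RefSeq windows of this length. The E-box form CATGTG, which reads CACATG on the other strand, began at -239 for Rpe65, -5 for Rgr and -124 for Rlbp1, and occurred in 14.2% of windows. TATAAA, printed here as its complement TTTATA, was found at -78 for Rlbp1 and in 13.6% of windows. Of the 7 members with a window printed or searched, Lrat, Rdh5 and Stra6 (4 windows) held no match, and 1 of the 2 Rdh11 windows held CACGTG at -230 and -182 and AGGTCA at -147. CACGTG occurred in 7.15% of windows, AGGTCA in 16.3% and AACAAT, absent from the members, in 10.7%. These matches are letters in a window and no measurement of binding. Windows for Rdh10 and Ttr were not used here.

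Total gene counts were 1636725 to 2884983 per library, so that 3 counts, the smallest level taken as detectable, equalled 1.05 to 1.82 CPM (counts divided by the normalised library size and brought to a common scale). Mitochondrial genes took 3.59% to 3.82% of gene counts in Bbs8+/+ and 3.19% to 3.33% in Bbs8-/-. The gene Gm42418 took 15.2% to 18.3% over all libraries, and a fit without both is given further below. The targeted gene Ttc8 was at 14.6 to 21.6 CPM in Bbs8+/+ libraries and fell to 2.29 to 9.70 CPM in Bbs8-/- libraries (edgeR quasi-likelihood FDR 2.74e-06), where FDR is the p-value adjusted over all genes tested. Xist, a transcript of female cells, and Y-linked genes were both detected in each of the 8 libraries, although the study's methods count each animal as a biological replicate. P-values measure the spread between these libraries, which may be partly technical. The summed level of 4 Y-linked genes was 59.0 to 64.9 CPM in Bbs8+/+ and 108 to 120 CPM in Bbs8-/- while Xist was at 640.5 to 746 and 569.99 to 625 CPM. The part of this difference in sex-linked transcripts in the results was not tested.

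The 9 genes spanned a wide range of levels. QuantSeq gives about 1 read per transcript end, and CPM of different genes were therefore compared without division by length. The order holds only as far as the reads of each gene fell within its annotation and had a single alignment, which was not tested. In Bbs8+/+ Ttr was the highest at 10937 ± 513 CPM, the 6th gene of 13813 tested, followed by Rgr (2095 ± 87.8), Rpe65 (1998 ± 98.4), Rdh5 (932 ± 11.4), Rlbp1 (778 ± 24.2), Rdh10 (652 ± 44.7), Lrat (346 ± 11.5), Stra6 (228 ± 5.04) and Rdh11 (52.3 ± 5.46; SD, n = 4 each). Only Rgr and Rpe65, which are neighbours in this order, overlapped between the Bbs8+/+ libraries. Ttr made up 60.7% ± 1.21 of the summed level of the 9 genes, and together they took 1.72% to 1.90% of the counts of a library.

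None of the 9 genes passed FDR 0.05 in the edgeR quasi-likelihood test. Among all 13813 genes 2.24% did, 152 up-regulated and 157 down-regulated in Bbs8-/-. At an unadjusted p under 0.05 there were 5 of the 9 (Stra6, Ttr, Rdh10 and Rlbp1 higher, Rpe65 lower), against 13.0% of all genes, or 6.38% for the higher side. The DESeq2 Wald test called 1 member, Stra6, where among all genes it called 130 higher and 118 lower. The log2 fold changes were above 0 for 7 members (49.5% of all genes) and below 0 for Rpe65 and Lrat, with a median of 0.087 against -0.0041 over all tested genes. All changes were small: the 95% intervals of the 9 genes ran from -0.25 at the lowest to 0.37 at the highest, which is 0.842-fold to 1.30-fold. For 3 of the 9 (Ttr, Stra6 and Rlbp1) every Bbs8-/- library was above every Bbs8+/+ library, and for none the reverse, against 3.62% and 3.76% of all genes, together 7.38%. The summed level of the 9 genes was 17346 to 18453 CPM in Bbs8+/+ and 18676 to 19065 CPM in Bbs8-/-. Without Ttr the sums were 6993 to 7183 and 7030 to 7329 CPM, which overlapped. In RNA from whole eyecups, a different number of RPE cells and a different amount of RNA per cell cannot be told apart.

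**Figure D1:**
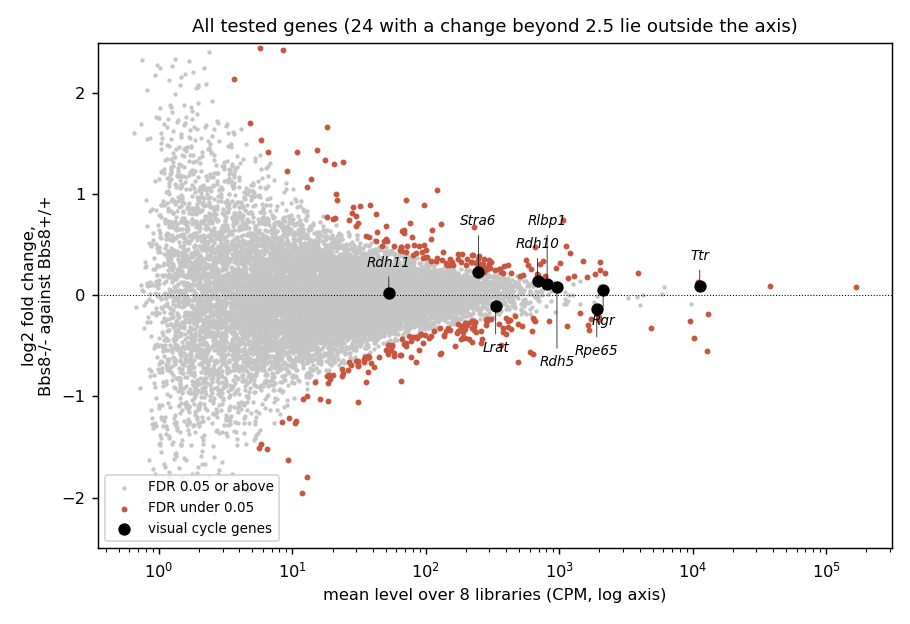
Mean level of each of the 13813 tested genes over the 8 libraries (CPM, log axis) against its log2 fold change in Bbs8-/-, with genes past FDR 0.05 in red and the 9 visual cycle genes in black. The visual cycle genes lie in the upper part of the range of levels, within 0.25 of 0, and 24 genes with changes beyond 2.5 are outside the axis.

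Of the genes for retinol delivery, Ttr and Stra6 were higher in Bbs8-/-, without reaching the threshold. Ttr (ENSMUSG00000061808, chromosome 18, 20665280 to 20674321 in mm10) encodes transthyretin. It measured 10918, 11185, 11415 and 10230.3 CPM in Bbs8+/+ replicates 1 to 4 and 11657, 11737, 11587 and 11646 CPM in Bbs8-/- replicates 1 to 4. Every Bbs8-/- library lay above every Bbs8+/+ library, and the lowest value was that of Bbs8+/+ replicate 4. On the log2 scale the difference was 0.09, with 0.029 as its standard error (SE; 95% interval 0.03 to 0.15, edgeR FDR 0.0686). With 1 library left out it ranged from 0.0632 without Bbs8+/+ replicate 4 (edgeR FDR 0.382) to 0.114 without Bbs8+/+ replicate 3 (FDR 0.0134), the only one of the 8 omissions that passed the threshold.

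Stra6 (ENSMUSG00000032327, chromosome 9, 58063788 to 58153996) encodes the receptor that takes up retinol from its plasma carrier. Its level was 226, 230.01, 234 and 223 CPM in Bbs8+/+ and 260.2, 279.8, 261 and 271 CPM in Bbs8-/-. The genotypes did not overlap, and the gap between them was wider than the spread within either. With a log2 fold change of 0.23 (SE 0.072, 95% interval 0.09 to 0.37) this was the largest change among the 9 genes, equal to 17.4%. The edgeR FDR was 0.0635, while it was 0.0455 with the filterByExpr filter and 0.0449 with DESeq2, and with 1 library left out the edgeR FDR was 0.0638 to 0.162. Stra6 overlaps Gm16131 on the same strand, which had 0 counts in every library, and Ccdc33 on the opposite strand, which had 5 to 31.

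Lrat and Rpe65, whose products catalyse consecutive steps of esterification and isomerisation, were the only members with a log2 fold change below 0. Rpe65 (ENSMUSG00000028174, chromosome 3, 159599175 to 159625321) measured 1987, 1989, 1889 and 2128 CPM in Bbs8+/+ and 1779.95, 1929, 1845 and 1743 CPM in Bbs8-/-. Bbs8-/- replicate 2 lay above Bbs8+/+ replicate 3, and the other libraries were separated by genotype. On the log2 scale the difference was -0.13 with an SE of 0.043 (95% interval -0.22 to -0.05, edgeR FDR 0.0843). With 1 library left out it ranged from -0.157 without Bbs8+/+ replicate 3 (edgeR FDR 0.0284), the only one of the 8 omissions that passed the threshold, to -0.0984 without Bbs8+/+ replicate 4 (FDR 0.347).

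Lrat (ENSMUSG00000028003, chromosome 3, 82892579 to 82903973) measured 361, 335, 339.95 and 348 CPM in Bbs8+/+ and 326, 321, 337 and 304 CPM in Bbs8-/-. Replicate 3 of Bbs8-/- overlapped the Bbs8+/+ range. The log2 fold change was -0.10 (SE 0.066, 95% interval -0.23 to 0.03, edgeR FDR 0.547), so that a fall of the size seen for Rpe65 is within its interval and so is no change.

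The 3 retinol dehydrogenases, short-chain enzymes that interconvert retinol and retinal, did not pass the threshold either. Rdh10 (ENSMUSG00000025921, chromosome 1, 16105774 to 16133734), which oxidises all-trans retinol, was 652, 688, 679 and 589 CPM in Bbs8+/+ and 736, 736, 733 and 683 CPM in Bbs8-/-. The number 4 library was the lowest of each genotype, and Bbs8-/- replicate 4 fell inside the Bbs8+/+ range. Its log2 fold change was 0.15 (SE 0.0549, 95% interval 0.04 to 0.26, edgeR FDR 0.175).

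Rdh5 (ENSMUSG00000025350, chromosome 10, 128913593 to 128922888), the main 11-cis retinol dehydrogenase of the RPE, was 922, 937, 923 and 946 CPM in Bbs8+/+ and 938, 1037, 1034 and 949.7 CPM in Bbs8-/-. Bbs8-/- replicates 2, 3 and 4 lay above all Bbs8+/+ libraries, replicate 4 only just, while replicate 1 lay within their range. The log2 fold change was 0.09 (SE 0.05, 95% interval -0.01 to 0.19, edgeR FDR 0.479). Rdh5 overlaps Bloc1s1 on the same strand, which had 156 to 218 counts and a log2 fold change of 0.01 (edgeR FDR 0.987). Rdh11 (ENSMUSG00000066441, chromosome 12, 79174337 to 79192293) ranged from 45.6 to 59.0 CPM in Bbs8+/+ and from 50.9 to 56.4 CPM in Bbs8-/-. With only 93 to 169 counts per library its interval was the widest of the 9, -0.25 to 0.30 around 0.02 (edgeR FDR 0.97), and a change within those bounds was not detectable at this depth.

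Rlbp1 and Rgr encode retinoid-binding proteins. Rlbp1 (ENSMUSG00000039194, chromosome 7, 79374870 to 79387048) was 795, 753, 803 and 762 CPM in Bbs8+/+ and 845, 821, 825 and 882 CPM in Bbs8-/-. All Bbs8-/- libraries were above all Bbs8+/+ libraries, with a log2 fold change of 0.12 (SE 0.0518, 95% interval 0.01 to 0.22, edgeR FDR 0.299). Rgr (ENSMUSG00000021804, chromosome 14, 37034909 to 37048964) was 1998, 2205, 2118 and 2061 CPM in Bbs8+/+ and 2170.5, 2150.5, 2203 and 2148 CPM in Bbs8-/-. The Bbs8-/- values lay inside the Bbs8+/+ range, and the log2 fold change was 0.05 (SE 0.0412, 95% interval -0.03 to 0.13, edgeR FDR 0.681). It was 0.0301 without Bbs8+/+ replicate 1 and 0.0776 without Bbs8+/+ replicate 2, past the threshold in neither.

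**Figure D2:**
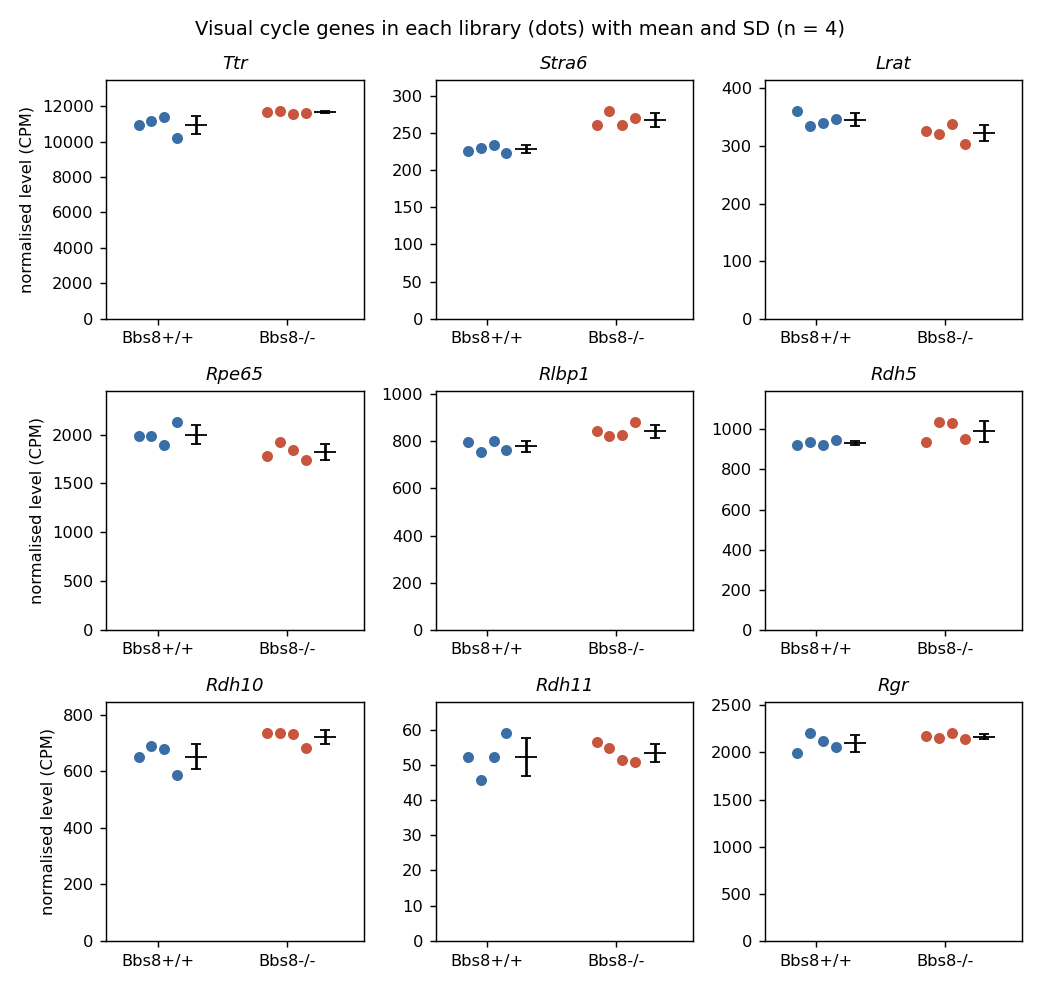
Normalised level (CPM, axes from 0) of the 9 visual cycle genes, with 1 dot per library in the order of replicates 1 to 4 and the mean and SD of each genotype beside them. Ttr, Stra6 and Rlbp1 do not overlap between genotypes and are higher in Bbs8-/-, whereas Rpe65 and Lrat are lower on average with overlap.

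Ratios of 2 members within a library do not depend on how libraries are scaled. Relative to Rpe65, Stra6 counts were 0.114, 0.116, 0.124 and 0.105 in Bbs8+/+ and 0.146, 0.145, 0.141 and 0.155 in Bbs8-/-, which is 1.28-fold higher on average and without overlap. The ratios to Rpe65 of Rdh10, Rlbp1, Ttr, Rdh5 and Rdh11 were also higher without overlap, by 1.21-fold, 1.19-fold, 1.17-fold, 1.16-fold and 1.12-fold. That of Rgr was 1.13-fold higher, with ranges of 0.969 to 1.12 and 1.12 to 1.23 that overlapped at their ends. Lrat to Rpe65 had a mean of 0.173 (SD 0.00896) in Bbs8+/+ and 0.177 (SD 0.0080) in Bbs8-/- over 4 libraries each, and its ranges overlapped. Lrat in turn separated the genotypes against 5 members (Rdh5, Rlbp1, Stra6, Rdh10 and Ttr). Of all 36 ratios among the 9 genes, 14 did not overlap between genotypes. Rpe65 was in 6 of them, Lrat in 5 and Stra6 in 5, and the 3 without Rpe65 or Lrat were those of Stra6 with Rlbp1, Rgr and Ttr. For comparison, 12.4% of the ratios between all pairs of 3339 genes with a mean of at least 50 CPM did not overlap. The 36 ratios share members and are not independent of each other.

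**Figure D3:**
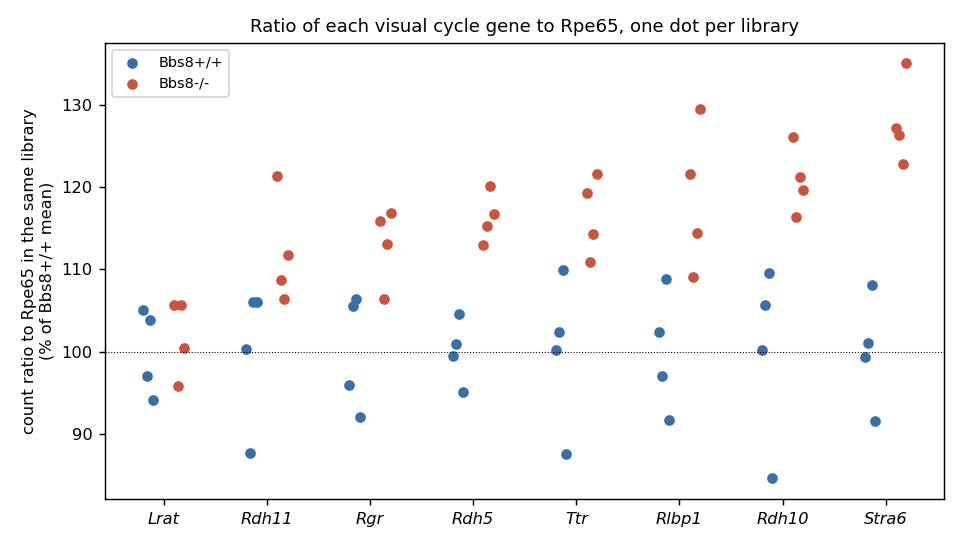
Counts of each of 8 members divided by Rpe65 counts in the same library, as percent of the Bbs8+/+ mean, with 1 dot per library. The ratio of Lrat overlaps between genotypes, that of Rgr overlaps at the ends of its ranges, and the other 6 are higher in every Bbs8-/- library, most for Stra6.

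The rest of the retinoid pathway was examined with a list of 22 further genes, of which 16 were tested, 3 had 0 counts in every library and 3 were below the filter. None passed the edgeR threshold in either direction (DESeq2, 0), and 1 had an unadjusted p under 0.05. Their median log2 fold change was 0.018, with 9 above and 7 below 0. The gene with an unadjusted p under 0.05 was Abca4, the retinoid flippase of photoreceptors and RPE, at 29.4 ± 5.78 and 39.3 ± 6.49 CPM (0.42, SE 0.173, edgeR FDR 0.246). Rrh, which encodes the RPE opsin peropsin, was 74.4 ± 7.57 and 68.7 ± 8.02 CPM (-0.11, edgeR FDR 0.776). Of 15 genes for synthesis, breakdown and reception of retinoic acid, 14 were tested and none had an edgeR FDR or an unadjusted p under 0.05 (DESeq2, 0), with a median of -0.096.

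The RPE identity of the preparation was checked with 13 other markers. Their summed level was 6894 to 7097 CPM in Bbs8+/+ and 7451 to 7557 CPM in Bbs8-/-, although Best1, a defining RPE channel gene, had only 0 to 10 counts per library and Cldn19, which encodes an RPE tight junction protein, 0 to 8. Of the 13, 4 were up-regulated and none was down-regulated at edgeR FDR 0.05, against 1.10% and 1.14% of all genes. At an unadjusted p under 0.05 there were 7 higher and 1 lower, and DESeq2 called 4 higher and 0 lower. Otx2, a transcription factor that RPE cells require, rose by 0.48 on the log2 scale, from 554 ± 11.6 to 771 ± 21.9 CPM (edgeR FDR 6.01e-12). Ezr, Krt18 and Trpm3, which encode a microvillar linker, a keratin and a cation channel, rose by 0.30, 0.26 and 0.22. The largest contribution came from Timp3, a protease inhibitor of Bruch's membrane, at 3821 ± 57.4 and 3775.5 ± 51.5 CPM (-0.02, edgeR FDR 0.903). Kcnj13, an RPE potassium channel gene, was 170.4 ± 8.31 and 140.2 ± 19.5 CPM (-0.28, edgeR FDR 0.064), on the side of Rpe65 and Lrat. When libraries were scaled by the sum of these markers, Rpe65 was past the threshold at -0.233 (edgeR FDR 7.11e-05), Lrat was -0.203 (FDR 0.0634), Stra6 was 0.131 (FDR 0.377) and Ttr -0.00789 (FDR 0.942). That sum holds the 4 markers called up-regulated in these same data, so the reference itself differs between the genotypes. The median of all genes moved to -0.104 under this scaling. The members moved with it by about the same amount.

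**Figure D4:**
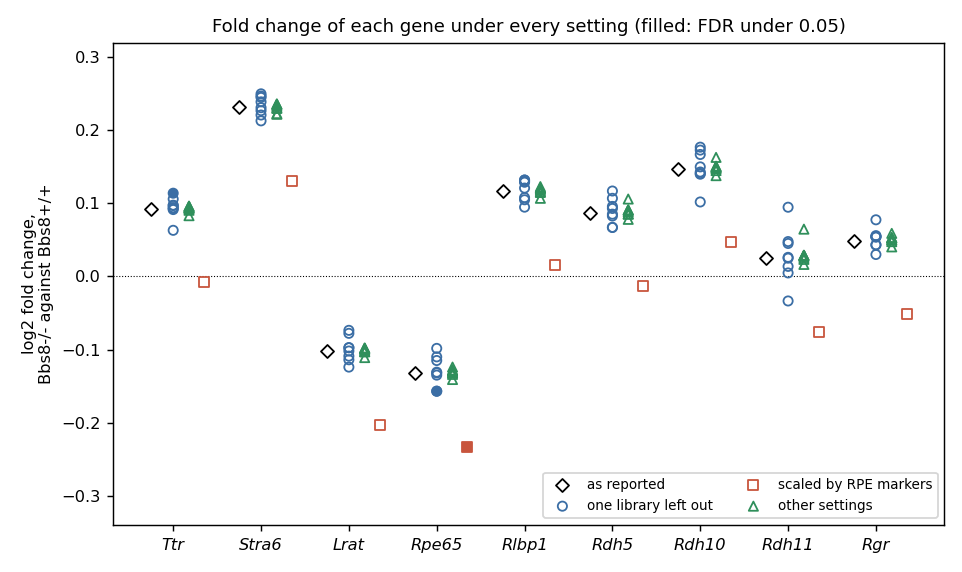
Log2 fold change of each visual cycle gene as reported (diamonds), with 1 library left out (circles), with libraries scaled by RPE markers (squares) and in the other settings (triangles). Filled symbols have FDR under 0.05: Rpe65 and Ttr without 1 library, Rpe65 with marker scaling, and Stra6 and Ttr in some other settings.

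Pigment genes are shared by RPE and choroidal melanocytes. Of 10, 6 were down-regulated and none was up-regulated in edgeR, while 7 were lower and 0 higher at an unadjusted p under 0.05 and DESeq2 called 6 lower and 0 higher, with a median of -0.247 and a summed level of 14546 to 15277 CPM in Bbs8+/+ and 12109 to 12661 CPM in Bbs8-/-. The 6 were Slc45a2, Tyrp1, Mlana, Mitf, Dct and Pmel, with log2 fold changes from -0.61 to -0.25.

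**Figure D5:**
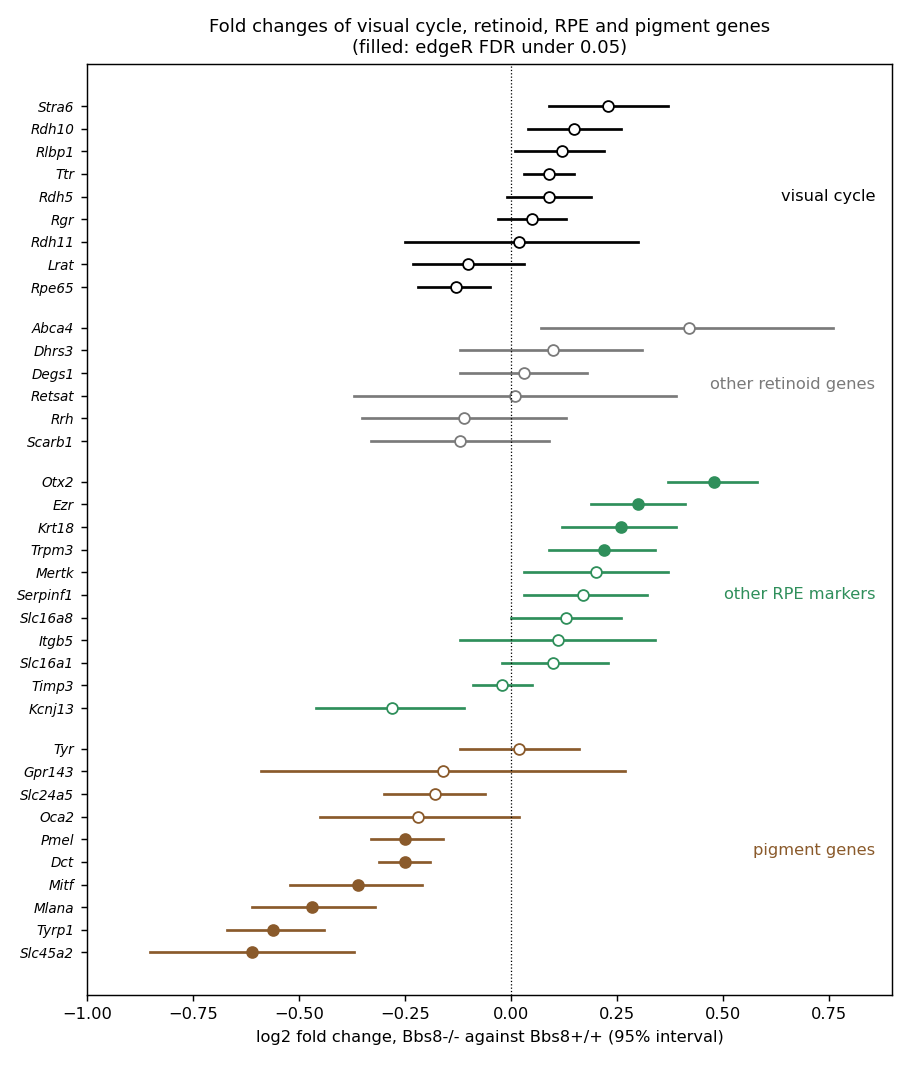
Log2 fold changes with 95% intervals for the 9 visual cycle genes and for other retinoid, RPE and pigment genes, all with at least 20 CPM in Bbs8+/+, filled where the edgeR FDR is under 0.05. The visual cycle genes lie between -0.13 and 0.23 and are all open, while 4 RPE markers are filled on the right and 6 pigment genes on the left.

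Other tissues that carry visual cycle transcripts or could be left on the eyecup were measured by marker lists. Rlbp1, Rgr and Rdh10 are also made by Müller glia, whose 7 markers summed to 1121 to 1176 CPM in Bbs8+/+ and 1054 to 1073 CPM in Bbs8-/-. Of these, 1 (Dkk3) was down-regulated and 0 up-regulated. Glul, which other tissues also express, gave most of that sum, while Aqp4 was at 0 to 7 counts. The 12 rod markers summed to 610 to 670 CPM and 524 to 571 CPM, with 2 down-regulated, and the 6 cone markers to 7.75 to 20.2 and 14.6 to 24.9 CPM. The 9 lens markers summed to 203 to 238 CPM and 406 to 437 CPM, with 3 (Cryaa, Cryba1 and Crygb) up-regulated. For Ttr, a plasma protein of the liver and a product of ciliary epithelium, 4 other plasma protein genes summed to 1.97 to 3.74 and 2.29 to 5.22 CPM with Afp at 0 in every library, and 5 ciliary epithelium markers to 8.03 to 13.5 and 11.0 to 24.9 CPM. The 4 melanocyte markers summed to 410 to 419 and 331 to 358 CPM. Ednrb was down-regulated, from a mean of 244 to 180 CPM, and carried most of this difference. Sox10, Kit and Mc1r had log2 fold changes of -0.05, -0.03 and 0.21 (edgeR FDR 0.878, 0.974 and 0.871). The 6 endothelium markers summed to 618 to 653 and 609 to 682 CPM, 5 skeletal muscle markers to 1128 to 1249 and 1201 to 1311 CPM, and 4 erythroid markers to 4134 to 4550 and 4497 to 5083 CPM with Hba-a1 up-regulated. The part of these tissues in the small differences of the visual cycle genes was not tested.

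Genes whose profile over the 8 libraries was near to that of Rpe65 and Stra6 were found among 6617 others with at least 20 CPM, by the root mean square difference of centred log2 CPM. For Rpe65 they included Serping1 and Tpr, with differences of 0.0356 and 0.0369 where the median gene was at 0.204. Both had a log2 fold change of -0.14. The 3 nearest to Stra6 were Tmem72, Iqgap2 and Rdx, which encodes the ezrin relative radixin, with differences of 0.0243, 0.0302 and 0.0377 where the median gene was at 0.219. Their log2 fold changes were 0.21, 0.26 and 0.20. Since the profiles compared include the difference between genotypes, fold changes near those of Rpe65 and Stra6 follow from the choice of these genes.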

How the data were processed

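QuantSeq 3′ mRNA libraries of 8 P11 eyecup samples were analysed. The files deposited hold whole-number counts per gene, from reads with a single alignment. To make them, the authors trimmed reads with BBDuk, aligned them with STAR to mm10 and counted them with htseq-count, without a stated strand setting. The counter's summary lines were left out. Symbols and positions (1-based) came from GENCODE M21 for 31011 of 31053 identifiers, and promoter windows from RefSeq.

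A gene was kept where 4 or more libraries reached 1 CPM, and was tested with edgeR 4.0.16 (R 4.3.3), using TMM factors, genotype as the only factor, the two-sided quasi-likelihood F test and Benjamini-Hochberg adjustment. The tool and the threshold of FDR 0.05 follow the study's methods, whose further filter on multiply mapped reads was not applied. CPM are TMM-normalised. The SE is the log2 fold change divided by the square root of F. The 95% intervals come from this fit and carry the spread between libraries, whereas the floors and counting errors cover counting only, as no molecular identifiers were named. The procedure was tested on simulated data.

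The genes named were the 9 members, Ttc8, genes of the other lists past FDR 0.05 or highest or lowest in them, and the nearest profiles of Rpe65 and Stra6. Kcnj13, Abca4 and Rrh were named after their values were seen. Some genes that the rule names are not reported here. Members and lists were chosen with earlier results of these data known. Alternatives were other scalings and filters, DESeq2 1.42.0, thinning, a replicate block, removal of Gm42418 and mitochondrial genes, and leaving out each library.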

Additional observations from a re-analysis of the deposited data

Results flagged for a closer look

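In Bbs8-/- the Rdh10 level of replicate 4 was 683 CPM against 733 to 736 CPM in the other 3 libraries, a gap of 0.946 of the range of the group. The summed level of the retinoic acid genes was 310.9 CPM in Bbs8-/- replicate 3 against 355 to 363 CPM in the others, a gap of 0.843 of the range. A library was set apart in this way (Dixon's criterion at the 95% level) in 2 of 50 groups of 4, where chance gives about 2.5.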

How the results depend on the processing

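The counts of visual cycle genes past FDR 0.05, 0 higher and 0 lower as reported, were 1 higher with filterByExpr and with DESeq2 (Stra6), 1 higher without Gm42418 and mitochondrial genes (Ttr, 0.0934, FDR 0.0345), and 1 lower with scaling by RPE markers (Rpe65). Each ranged from 0 to 1 when 1 library was left out, the 1 being Ttr and Rpe65 without Bbs8+/+ replicate 3. Over all genes, 152 higher and 157 lower as reported, filterByExpr gave 173 and 161 and DESeq2 gave 130 and 118. Removal of Gm42418 and mitochondrial genes gave 154 and 151. Leaving out 1 library gave 114 to 172 and 101 to 150, the 101 without Bbs8-/- replicate 1. Scaling by RPE markers gave 81 higher and 464 lower. The same scaling turned the direction of Rdh5 (-0.0135), Rgr (-0.0511), Rdh11 (-0.0763) and Ttr (-0.00789), and its construction moves every gene down by about the same amount. Rdh11 ranged from -0.0335 to 0.0948 with 1 library left out, and the cause was not tested. Rpe65, Lrat, Rlbp1, Stra6, Rdh10 and Ttc8 kept their direction in all 17 alternatives, with log2 fold changes of -0.233 to -0.0984, -0.203 to -0.0737, 0.0162 to 0.132, 0.131 to 0.25, 0.0466 to 0.177 and -2.44 to -1.70. In a fit with replicate numbers as a block there were 134 higher and 129 lower genes, and 0 visual cycle genes were past the threshold in either direction. Deviations of same-numbered libraries correlated at -0.07 to 0.0106 across 3339 genes, so the numbers were not taken to pair the libraries. Depth limits Rdh11 most, whose counting error alone was 7.69% to 10.4% per library.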

Other observations

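The spread between libraries differed among the visual cycle genes. For Ttr the coefficient of variation was 4.69% in Bbs8+/+ and 0.528% in Bbs8-/-, where counting error gives 0.584% to 0.721%. For Rgr it was 4.19% and 1.17%, with a counting error of 1.30% to 1.67%. Rdh5 showed the opposite order, 1.22% in Bbs8+/+ and 5.36% in Bbs8-/-, with a counting error of 1.92% to 2.54%. Differences in spread were not tested. Bbs8-/- replicate 4 was below the mean of its genotype for 7 of the 9 genes, by a median of 0.058 on the log2 scale, while the other 7 libraries were below it for 3 to 5 genes. Leaving this library out brought no visual cycle gene past FDR 0.05.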
